A study of Mus musculus with 5 samples.

Results

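Baalc and Dpp6 are 2 of the 54232 genes in the table of this series, and 2 of the 18156 that were tested. They were picked from the measured values, as large decreases in Elmo2EID/EID myoblasts with a mean of 100 or more normalized counts over the 5 samples and no overlap with the WT samples. Their own levels and fold changes are therefore given as a description, without a test. RNA was sequenced from primary mouse myoblasts after 72 h in differentiation medium, taken from 2 genotypes, WT (n = 3) and Elmo2EID/EID (n = 2). The EID allele is a knock-in of the I196D change into ELMO2, the scaffold of the RAC exchange factor DOCK1, and it favours the open conformation of the protein in every cell of the mouse. Mice of both genotypes were of mixed C57BL6/129SV background and aged 6 to 8 weeks when leg muscle was taken, and the cells of both were selected with Integrin-α7 beads. The study states that its primary cells usually came from independent mice, but the sample titles only number the samples of each genotype. The deposited values also give each library a further identifier, whose meaning is not stated. A library can therefore not be tied to a mouse or culture, and the p-values below measure the spread between these samples.

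BAALC is a small lipid-anchored protein of the inner face of membranes, best known from neural tissue and from human acute leukaemia, where its RNA is measured as a marker of outcome. In neurons it binds the calcium/calmodulin-dependent kinase CaMKII. DPP6 is a single-pass membrane protein of the dipeptidyl peptidase 4 (DPP4) family. It has lost peptidase activity and serves as an auxiliary subunit of Kv4 potassium channels, where it helps the channel reach the surface and speeds its opening and inactivation, together with the cytoplasmic KChIP subunits.

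Baalc (ENSMUSG00000022296) lies on chromosome 15 of GRCm38, from 38933144 to 38952912 on the plus strand, and its merged exons hold 4141 bases. Dpp6 (ENSMUSG00000061576) lies on chromosome 5, from 26817203 to 27727505 on the plus strand, a body of 910303 bases of which 12347 are exonic in the GENCODE M21 annotation. Because the values count reads over all annotated exons of a gene, they do not tell apart transcripts that begin at different starts. RefSeq on GRCm38.p6 gives Dpp6 3 such starts, at 26817357, 27049199 and 27261935, all inside the GENCODE body. The 300 bases around each of them, mostly upstream of that RefSeq start, are printed below from the plus strand, since the summed Dpp6 value covers RNA from all of them. Capitals mark E-boxes, the CANNTG sites that myogenic factors of the MyoD family can bind, searched on both strands.

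Dpp6 start 1, chr5:26817107-26817406: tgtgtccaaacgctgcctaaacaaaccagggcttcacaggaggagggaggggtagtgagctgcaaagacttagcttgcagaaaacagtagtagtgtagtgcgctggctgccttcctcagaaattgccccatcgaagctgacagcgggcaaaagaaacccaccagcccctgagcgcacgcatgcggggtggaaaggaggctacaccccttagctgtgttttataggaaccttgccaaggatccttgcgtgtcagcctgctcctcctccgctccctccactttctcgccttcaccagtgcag
Dpp6 start 2, chr5:27048949-27049248: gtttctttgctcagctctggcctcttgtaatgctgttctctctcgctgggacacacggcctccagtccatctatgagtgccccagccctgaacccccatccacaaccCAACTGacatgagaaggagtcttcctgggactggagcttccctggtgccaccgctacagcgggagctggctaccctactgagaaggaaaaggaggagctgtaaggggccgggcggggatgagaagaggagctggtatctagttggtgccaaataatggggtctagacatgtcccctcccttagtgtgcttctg
Dpp6 start 3, chr5:27261685-27261984: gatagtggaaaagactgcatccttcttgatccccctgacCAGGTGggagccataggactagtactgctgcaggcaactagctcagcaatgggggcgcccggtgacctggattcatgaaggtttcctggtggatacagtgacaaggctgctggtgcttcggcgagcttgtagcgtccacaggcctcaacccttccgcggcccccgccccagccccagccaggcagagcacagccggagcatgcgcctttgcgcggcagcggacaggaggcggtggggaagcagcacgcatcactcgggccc

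The 3 regions held 0, 1 and 1 E-boxes and 10, 6 and 16 CpG dinucleotides, at a GC content of 56%, 56.7% and 63.3%. Among the 32851 RefSeq promoters of this length, 72.3% held at least 1 E-box, and the median CpG number was 7 with a median GC content of 52.7%. Start 3 was thus the richest of the 3 in CpG, with 33% of all promoters holding as many or more. A match to these letters is a description of the sequence and not a bound site.

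The sequence around the catalytic serine shows what sets Dpp6 apart within its family. The 27 bases below are from GENCODE M21 transcripts, and capitals mark the codon aligned with the catalytic serine of Dpp4.

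Dpp4: atttggggctggTCAtatggagggtat
Fap: atatggggctggTCCtacggaggttat
Dpp8: atccacggctggTCCtatggtggctac
Dpp9: atccatggctggTCCtacggcggcttc
Dpp6: gtgtttgggaagGATtatggtgggtac
Dpp10: atttttggaaagGGAtatgggggctat

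Dpp4, Fap, Dpp8 and Dpp9, the active peptidases, carry a serine codon there. Dpp6 carries aspartate, at codon 706 of 859, and Dpp10, its closest relative and likewise a Kv4 subunit, carries glycine. In Dpp4 itself the serine is codon 624 of 760.

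Baalc was measured at 805.8, 710.0 and 800.5 normalized counts in WT cells, and at 21.5 and 51.1 in the Elmo2EID/EID samples. The 3 WT samples lay close to each other, and the lowest of them was 13.9 times the highest Elmo2EID/EID sample. The WT mean was 772.1 ± 53.8 (SD, n = 3), and the Elmo2EID/EID mean of 36.3 ± 20.96 (SD, n = 2) was 4.70% of it. On the scale of log2(normalized count + 1), on which all fold changes here are given as Elmo2EID/EID over WT, the difference was -4.50 (standard error 0.33).

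Dpp6 was measured at 490.4, 595.6 and 680.0 normalized counts in WT and at 32.2 and 19.7 in Elmo2EID/EID. No Elmo2EID/EID sample came near a WT sample, and the lowest WT sample was 15.2 times the highest Elmo2EID/EID one. The WT mean was 588.6 ± 94.99 (SD, n = 3), and the Elmo2EID/EID mean of 26.0 ± 8.82 (SD, n = 2) was 4.41% of it, which makes -4.48 on the log2 scale (standard error 0.24). Both genes thus kept a low but countable level in the mutant cells, above the 2.65 to 3.73 normalized counts that 3 reads are worth, by sample.

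**Figure D1:**
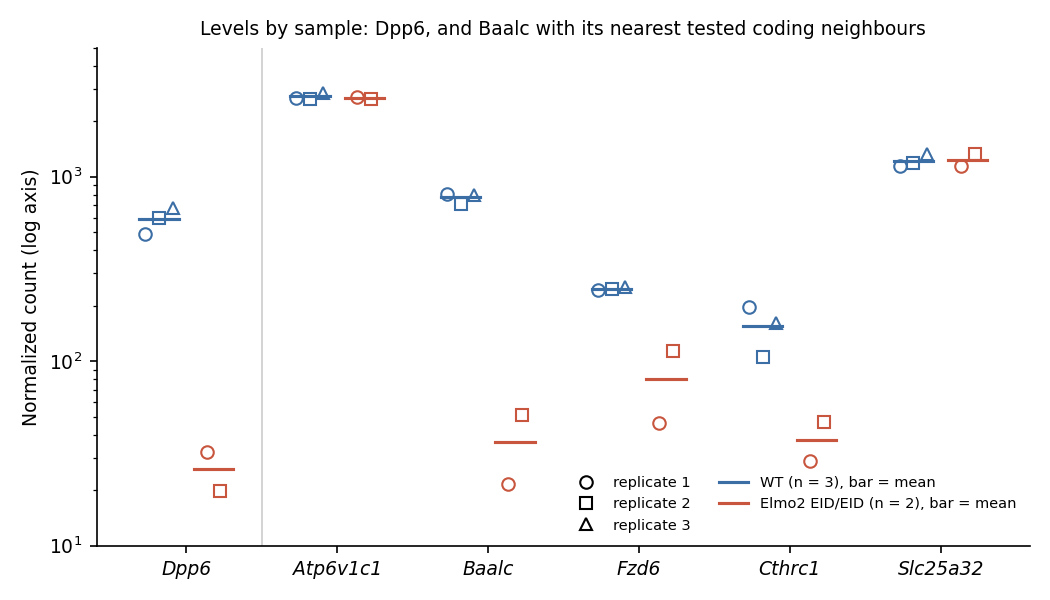
Normalized counts (log axis) of Dpp6, of Baalc and of the nearest tested protein-coding genes around Baalc in the order of the chromosome, for each WT (blue, n = 3) and Elmo2EID/EID (red, n = 2) sample, with symbols for the replicate number and bars for the group mean. Dpp6 and Baalc were at 490.4 to 805.8 in WT and 19.7 to 51.1 in Elmo2EID/EID, Fzd6 and Cthrc1 were lower by less, and Atp6v1c1 and Slc25a32 were at like levels in both genotypes.

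The reads behind these values set how finely the low levels can be read. Baalc rested on 912, 633 and 644 reads in WT and on 24 and 57 in Elmo2EID/EID. The exact 95% Poisson intervals of the mutant samples were 13.8 to 31.9 and 38.7 to 66.2 normalized counts, which do not overlap, so the 2.38-fold difference between these replicates was larger than counting error. Dpp6 rested on 555, 531 and 547 reads in WT and on 36 and 22 in Elmo2EID/EID. Its mutant intervals were 22.5 to 44.6 and 12.4 to 29.9, which overlap, so the Dpp6 level of the mutant replicates was not distinguishable at this depth. These intervals cover counting error only.

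Baalc was higher in Elmo2EID/EID replicate 2, while the order of the replicates for Dpp6 was not distinguishable. The ratio of Baalc to Dpp6 in normalized counts was 0.667 and 2.59 in the mutant samples against 1.64, 1.19 and 1.18 in WT. The coefficient of variation for Baalc was 6.97% in WT and 57.8% in Elmo2EID/EID. For Dpp6 it was 16.1% and 34.0%.

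Divided by exon length, Baalc had 186.5 normalized counts per kb in WT and 8.76 in Elmo2EID/EID, and Dpp6 had 47.7 and 2.10. The median of the 14339 tested protein-coding genes was 152.8 per kb in WT and 151.6 in Elmo2EID/EID. Baalc therefore went from the 54.2nd percentile of coding genes in WT to the 16.4th, and Dpp6 from the 31.8th to the 6.28th. Baalc was a gene of about middle level in WT cells and Dpp6 a gene of lower level, and both were among the low ones in the mutant cells.

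The threshold of the choice can be described by the genes on either side of it. Of 11223 genes that averaged 100 or more normalized counts, 1877 had every Elmo2EID/EID sample below every WT sample, and Baalc and Dpp6 had ranks 2 and 3 among them by the size of the decrease on the log2 scale. Eps8l1, an EPS8-like adaptor gene, had rank 1 at -5.23. Gpr20, an orphan receptor gene, had rank 4 at -3.91 and lay just inside the threshold on the mean, at 106.9. Among genes below the threshold, Ceacam20 had a mean of 74.8 and a fold change of -3.13, with mutant samples far apart at 61.7 and 0.896. Rgs5 had a mean of 60.6 and -2.97, and Cacna1i, a T-type calcium channel gene, a mean of 56.5 and -3.89.

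**Figure D2:**
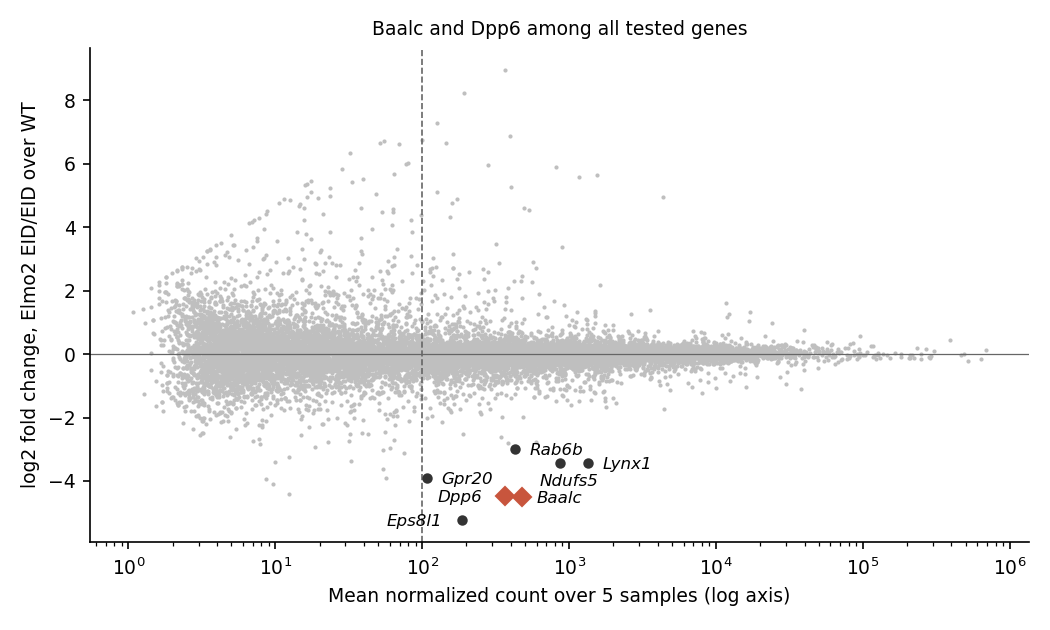
Log2 fold change of Elmo2EID/EID over WT against the mean normalized count over the 5 samples (log axis) for all 18156 tested genes (grey), with Baalc and Dpp6 as red diamonds, the other 5 of the 7 largest non-overlapping decreases in black and the threshold on the mean as a dashed line at 100. Baalc at -4.50 and Dpp6 at -4.48 lie next to each other below the main cloud, with Eps8l1 at -5.23 further down.

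Genes whose pattern over the samples was most like that of Baalc and Dpp6 were found by the root mean square difference of their log2 profiles, each centred on its own mean over the 5 samples, among 10793 protein-coding genes averaging 100 or more. These are the samples and the contrast that the choice of Baalc and Dpp6 used, and the genes found are those with ranks 1 to 6 by decrease, so the lists only describe that choice. Nearest to Baalc were Gpr20 (0.50), Dpp6 (0.62), Ndufs5 (0.70), Lynx1 (0.72) and Eps8l1 (0.74), all in log2 units. Nearest to Dpp6 were Gpr20 (0.49), Eps8l1 (0.51), Lynx1 (0.54), Ndufs5 (0.55) and Baalc (0.62). Ndufs5 encodes a subunit of respiratory complex I, and Lynx1 a membrane-bound modulator of nicotinic acetylcholine receptors. Lynx1 and Gpr20 lie, like Baalc, on chromosome 15.

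Around Baalc, the nearest coding genes downstream, Fzd6 and Cthrc1, had fold changes of -1.74 and -2.01, of which limma called the latter, and the other tested coding genes lay between -0.28 and 0.39. Within 1 Mb of the gene body the annotation holds 46 other genes, of which 31 were above 0 in some sample and 19 passed the filter of 5 normalized counts in at least 1 sample. Limma, with p-values adjusted by Benjamini-Hochberg over all 18156 genes, called 1 of the 19 (5.26%), lower, and 0 higher, where it called 2.23% of all tested genes in either direction, 1.14% lower and 1.09% higher. The median fold change of the 19 was -0.14, against 0.01 for all genes. Without adjustment, 5 of the 19 had p under 0.05, as did 15.2% of all tested genes. EdgeR's quasi-likelihood test also called 1, lower (2.25% of all genes, 1.13% lower), and the DESeq2 Wald test 3, namely Cthrc1 and Fzd6, lower, and Rrm2b, higher (5.34% of all genes, 3.06% lower). Groups did not overlap for 6 of the 19, 5 of them lower, where 32.6% of all tested genes did not overlap and 15.9% were lower without overlap.

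The called gene was Cthrc1, which encodes a secreted collagen triple helix protein linked to matrix remodelling and Wnt signalling. It starts 143.8 kb downstream of the Baalc start. Cthrc1 was at 197.0, 105.4 and 161.6 normalized counts in WT and at 28.6 and 46.6 in Elmo2EID/EID, without overlap. The fold change was -2.01 (standard error 0.33, limma adjusted p = 0.0356), from 154.7 ± 46.2 (SD, n = 3) to 37.6 ± 12.7 (SD, n = 2). EdgeR gave an adjusted p of 0.0351 and DESeq2 one of 7.88e-06. The call was lost in limma without any one of 4 samples, with adjusted p = 0.128 without WT replicate 1, 0.0799 without WT replicate 3, 0.214 without Elmo2EID/EID replicate 1 and 0.176 without Elmo2EID/EID replicate 2, and it held at 0.0332 without WT replicate 2.

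Between Baalc and Cthrc1 lies Fzd6, which encodes a Frizzled receptor of Wnt ligands. It is the nearest tested gene to Baalc, with 53.1 kb between the gene bodies. Fzd6 was at 243.0, 245.7 and 251.1 normalized counts in WT and at 46.5 and 113.9 in Elmo2EID/EID. The WT samples were nearly equal, and both mutant samples were below them, at 18.9% and 46.2% of the WT mean. The fold change was -1.74 (standard error 0.34) and missed the limma threshold (adjusted p = 0.0597), as it did in edgeR (adjusted p = 0.0648), while DESeq2 gave an adjusted p of 1.99e-04. Leaving out a WT sample or Elmo2EID/EID replicate 1 gave limma adjusted p from 0.0739 to 0.196. Without Elmo2EID/EID replicate 2 it was 0.0339, but that fit keeps only the lower of the mutant samples and assumes that it varies like the WT samples.

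Baalc, Fzd6 and Cthrc1 were all higher in Elmo2EID/EID replicate 2 than in replicate 1, by 2.38, 2.45 and 1.63 times. Rims2, a presynaptic scaffold gene that starts 265.1 kb downstream of Baalc, had the same order at 34.9 and 105.8 normalized counts, 3.03 times. Its WT samples were at 50.4, 63.9 and 85.8, between the mutant ones, and its fold change was -0.10 (standard error 0.47, limma adjusted p = 0.948). The sign of this fold change turned under edgeR (0.08) and DESeq2 (0.08). For other coding genes of the window, replicate 2 over replicate 1 was 1.18 for Azin1, 1.15 for Slc25a32, 1.01 for Dcaf13 and 0.97 for Atp6v1c1. The share of all genes that were higher in Elmo2EID/EID replicate 2 was not computed, so this order is only described.

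Slc25a32, a mitochondrial folate carrier gene, and Dcaf13, a nucleolar gene, sit between Cthrc1 and Rims2 and had small fold changes. Slc25a32 was at 1141, 1191 and 1330 normalized counts in WT and 1149 and 1320 in Elmo2EID/EID, a fold change of 0.02 (standard error 0.10). Dcaf13 had a fold change of -0.16 (standard error 0.07, limma adjusted p = 0.360). The mutant samples of Slc25a32 lay within its WT range, and those of Dcaf13 just below it.

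On the upstream side, the first tested gene was Atp6v1c1, which encodes a subunit of the vacuolar proton pump and ends 240.7 kb before Baalc. It was at 2672, 2648 and 2852 normalized counts in WT and at 2714 and 2623 in Elmo2EID/EID, a fold change of -0.03 (standard error 0.07). Further upstream, Azin1 (antizyme inhibitor) had -0.28, Klf10 (a TGF-beta-induced transcription factor) 0.03 and Rrm2b (a ribonucleotide reductase subunit) 0.39. None of these 3 passed limma's threshold, the lowest adjusted p being 0.114 for Rrm2b, which DESeq2 called at 0.0309. Lrp12, a lipoprotein receptor-related gene at the far downstream end, had -0.08.

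The 8 tested non-coding genes and pseudogenes of the window had fold changes from -1.24 to 0.13, with 0 called by limma and a lowest adjusted p of 0.280. Gm49097, an antisense gene that overlaps the 5′ part of Baalc, was at 0, 0 and 3.73 normalized counts in WT and at 0 and 0.896 in Elmo2EID/EID. The authors counted by strand, so its reads are kept apart from those of Baalc. The genes annotated between Baalc and Cthrc1 other than Fzd6, namely Gm4740, Gm26704, Gm49786, Gm24789 and Gm49105, did not exceed 3.73 normalized counts in any sample. Dcstamp, a fusion gene of osteoclasts, lies in the window and was at 0 in all 5 samples. A window of 0.5 Mb held 10 tested genes with 1 called, again Cthrc1.

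**Figure D3:**
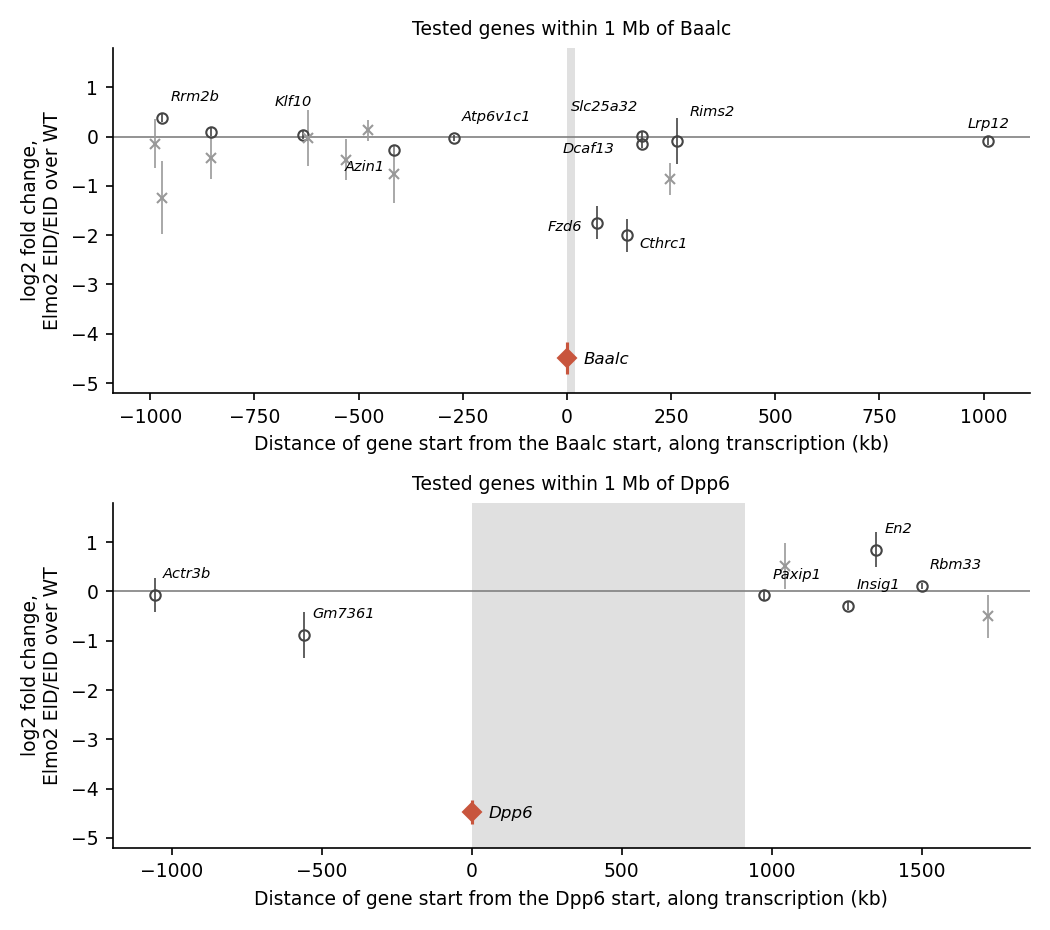
Log2 fold change of Elmo2EID/EID over WT (± standard error from limma) for tested genes within 1 Mb of Baalc (top) and of Dpp6 (bottom), against the distance of their start from that of Baalc or Dpp6 in kb along the direction of transcription. Circles are protein-coding and crosses other genes, the shaded band is the body of Baalc or Dpp6, and Fzd6 (-1.74) and Cthrc1 (-2.01) stand below the other coding neighbours of Baalc while those of Dpp6 lie between -0.88 and 0.84.

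Around Dpp6 no tested gene passed the threshold. The window of 1 Mb on either side of the gene body held 46 other genes, of which 17 were above 0 and 8 were tested. Limma called 0 of the 8 (2.23% of all genes), as did edgeR (2.25%) and DESeq2 (5.34%). An unadjusted limma p under 0.05 was found for 1, Insig1 (15.2% of all genes). With 8 genes, these counts cannot be told apart from the shares of all genes. The median fold change of the 8 was -0.08, and 4 of them, 2 of these lower, did not overlap between the genotypes, where 32.6% of all tested genes did not.

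Paxip1, a gene of DNA damage response and histone methylation whose body begins 12.6 kb past the end of Dpp6 and is transcribed toward it, was at 933.9, 917.5 and 914.9 normalized counts in WT and at 923.8 and 820.3 in Elmo2EID/EID. Its fold change was -0.08 (standard error 0.08, limma adjusted p = 0.706). It is the closest tested neighbour of Dpp6, and replicate 1 of the mutant lay within the WT range. Insig1, a regulator of sterol synthesis, had -0.29 (limma adjusted p = 0.220) and Rbm33, an RNA-binding protein gene, 0.11 (0.433). En2, a homeobox gene, had 0.84 (0.333) from 13.4 ± 3.42 (SD, n = 3) to 24.6 ± 5.74 (SD, n = 2) normalized counts. Upstream of Dpp6, Gm7361 had -0.88 at a mean of 5.59 in WT and 2.69 in Elmo2EID/EID, and Actr3b, an actin-related gene, had -0.07.

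The annotation also places 7 small genes inside the long body of Dpp6. These are Gm29784, Gm16056, Gm16057, Gm43776, Gm43502, Speer4b and the antisense Gm16058. None exceeded 0.894 normalized counts, which is 1 read, in any sample. Upstream of Dpp6 lies a cluster of near-identical genes that includes Speer4a, for which uniquely mapped reads are an uncertain measure, and its untested members were at 0 or 1 read.

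No other member of the family of Dpp6 was called. Of the 5 other members of the DPP4 family, 4 were tested. Limma called 0 of them (2.23% of all genes), as did edgeR (2.25%) and DESeq2 (5.34%), with 0 at an unadjusted limma p under 0.05 (15.2%). With 4 genes, these counts cannot be told apart from the shares of all genes. The median fold change of the 4 was 0.11.

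Dpp8 and Dpp9, the cytosolic peptidases of the family, were its most abundant members per length. Dpp8 was at 10011, 9957 and 9476 normalized counts in WT and at 10584 and 10632 in Elmo2EID/EID, a fold change of 0.11 (standard error 0.06, limma adjusted p = 0.428). Dpp9 was at 2689, 2445 and 2704 in WT and at 2924 and 2906 in Elmo2EID/EID, 0.16 (standard error 0.07, limma adjusted p = 0.350). Neither passed the test. Both were higher in every mutant sample than in any WT sample, and these were the 2 of the 4 tested members without overlap, where 32.6% of all tested genes did not overlap.

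Per kb of exon, Dpp8 had 716.0 normalized counts in WT and Dpp9 331.4, so that Dpp6 at 47.7 came next in the family. In Elmo2EID/EID the order was Dpp8 at 773.9, Dpp9 at 369.8, Fap at 4.42 and Dpp6 at 2.10, followed by Dpp4 at 0.992. Fap, the fibroblast activation protein, was at 22.4 to 39.3 normalized counts in WT and at 42.0 and 8.07 in the mutant samples, on both sides of the WT samples, so its place next to Dpp6 in that order is within the spread. Dpp4, the surface peptidase CD26, was at 3.73 to 8.97 over all 5 samples, and Dpp10 was at 0 in all of them.

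The wider set of prolyl-bond peptidases, Prep, Prepl, Dpp7, Prcp, Apeh and Dpp3, was tested in full. Limma called 0 of the 6 (2.23% of all genes), as did edgeR (2.25%) and DESeq2 (5.34%), with 1 at an unadjusted limma p under 0.05 (15.2%). Fold changes ran from -0.12 for Prcp to 0.19 for Dpp3. Prep, the cytosolic prolyl oligopeptidase, had -0.02 and its relative Prepl 0.16, while the lysosomal Dpp7 had -0.08 and Apeh, which removes acylated end residues, -0.07.

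Dpp6 acts in the cell as a partner of Kv4 channels, but the genes of that complex were scarce in these cells. Of 16 genes listed, 15 were found in the table and 9 were tested, with a median fold change of 0.09. Limma called 0 (2.23% of all genes), as did edgeR (2.25%) and DESeq2 (5.34%), and 0 had an unadjusted limma p under 0.05 (15.2%). With 9 tested genes, these counts cannot be told apart from the shares of all genes. Another 5, Dpp10, Kcnip4, Kcnd2, Kcne3 and Kcne2, were at or under 3 reads in every sample.

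Among the pore-forming subunits, Kcnd1 was at 31.8, 10.1 and 21.1 normalized counts in WT and at 19.7 and 17.9 in Elmo2EID/EID. Kcnd3 was at 20.3, 5.61 and 3.73 in WT and at 3.58 and 5.38. The mutant samples lay within or at the edge of the WT range for both, and Kcnd2, the main partner of Dpp6 in neurons, showed 1 read in 1 sample. Per kb of exon, Dpp6 at 47.7 normalized counts in WT was above Kcnd1 at 3.97 and Kcnd3 at 1.03, whereas in Elmo2EID/EID Dpp6 at 2.10 was below Kcnd1 at 3.56 and above Kcnd3 at 0.467.

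KChIPs, the calcium-binding subunits, were low as well, Kcnip3 being at 4.47 to 8.97 and Kcnip2 at 2.65 to 7.46 normalized counts. Kcnab1, a cytoplasmic beta subunit, was at 164.3, 30.3 and 131.8 in WT, with the mutant samples at 55.4 and 48.4. WT replicate 2 was low, the groups overlapped, and the fold change was -0.74 (standard error 0.67, limma adjusted p = 0.675). Without that sample it was called by limma.

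**Figure D4:**
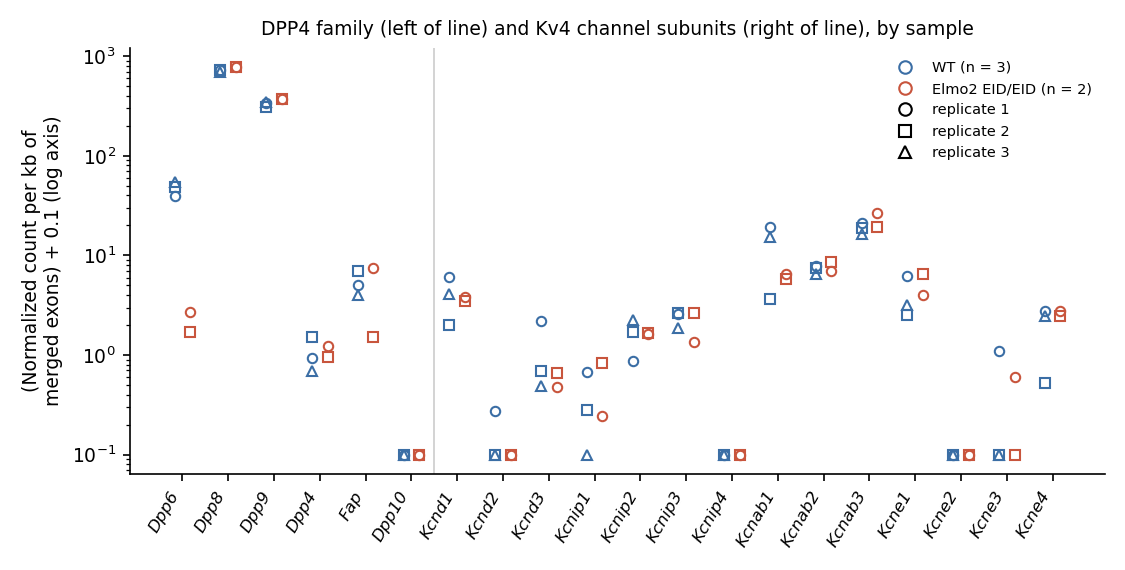
Normalized counts per kb of merged exons, plus 0.1 so that 0 can be drawn (log axis), for Dpp6 and the other members of its family (left of the line) and the Kv4 subunits (right of the line), in each WT (blue) and Elmo2EID/EID (red) sample, with symbols for the replicate number. Dpp6 drops from a mean of 47.7 to 2.10 while Dpp8 has 716.0 and 773.9 and Dpp9 331.4 and 369.8, and the pore subunit Kcnd1 has 3.97 and 3.56.

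Other voltage-gated potassium channels were better represented, with Kcnf1 at 551.5 normalized counts per kb in WT. Of 36 genes listed, 20 were tested, with a median fold change of 0.05, and limma called 1 (2.23% of all genes), as did edgeR (2.25%) and DESeq2 (5.34%), with 6 at an unadjusted limma p under 0.05 (15.2%). This was Kcnh2, which encodes the ERG channel of delayed repolarization. Kcnh2 was at 313.7, 274.8 and 323.2 normalized counts in WT and at 165.5 and 171.2 in Elmo2EID/EID, and fell by 0.85 on the log2 scale (standard error 0.12, limma adjusted p = 0.0254). The call was lost in limma without WT replicate 1 or 3 or either Elmo2EID/EID sample, with adjusted p from 0.0638 to 0.206. Those not called ran from -1.96 for Kcng1 to 1.65 for Kcna2. Kcng1 did not exceed 7.07 normalized counts, and Kcna2 was at 1.12 to 26.1 in WT and at 36.7 and 13.4 in Elmo2EID/EID. Of the well-expressed ones, Kcnc1 had 0.43, Kcnf1 0.27, Kcna7 0.24, Kcnc4 0.21 and Kcnq5 -0.11.

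For Baalc, which has no close relatives among mouse genes, 15 genes tied to it by binding, by lipid anchoring or by human leukaemia were examined instead. All were tested, with a median fold change of 0.01. Limma called 1, higher (2.23% of all genes, 1.09% higher), and edgeR 1 (2.25%), while DESeq2 called 3, Camk2b, Erg and Mn1 (5.34%). Limma gave 5 with an unadjusted p under 0.05 (15.2% of all genes).

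CaMKII subunits, of the kinase that binds BAALC, had fold changes of both signs. Camk2a, the partner described in neurons, had a fold change of 0.01 (standard error 0.16), whose sign turned under equal totals, edgeR and DESeq2. Camk2d had 0.12 and Camk2g -0.09. Camk2b was at 5894, 6342 and 5313 normalized counts in WT and at 4406 and 3747 in Elmo2EID/EID, without overlap, and its fold change of -0.52 (standard error 0.10) missed the limma threshold (adjusted p = 0.0591) and passed that of DESeq2 (adjusted p = 5.57e-04).

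Klf4 and Map3k1, whose proteins have been tied to BAALC in leukaemia cells, had fold changes of 0.08 and -0.29, and neither passed the test. The acylated proteins of the membrane cortex that resemble BAALC in anchoring, Marcks, Marcksl1 and Basp1, had -0.32, -0.39 and -0.47, with limma adjusted p of 0.351, 0.363 and 0.351. Gap43 was near the floor, at 1.79 to 5.37 normalized counts.

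Of the genes that are high together with BAALC in human leukaemia, the transcriptional regulator Mn1 was the called one. It was at 1163, 1260 and 1159 normalized counts in WT and at 1690 and 1695 in Elmo2EID/EID, and rose by 0.50 on the log2 scale (standard error 0.07, limma adjusted p = 0.0226), opposite in direction to Baalc. This call was lost in limma without WT replicate 1 or 3 or either Elmo2EID/EID sample, with adjusted p from 0.0507 to 0.205. Runx1 had -0.15 and Igfbp7 0.44, neither passing. Erg and Cd34, which are also endothelial genes, had 2.44 and 1.42 and did not pass in limma (adjusted p = 0.158 and 0.242).

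The recovered libraries held 35021856 to 49381544 reads. All 12 myogenic markers were tested, with Myog at 47286 to 50441 normalized counts in WT and 53544 and 50612 in Elmo2EID/EID. Limma called 0 (2.23% of all genes), as did edgeR (2.25%) and DESeq2 (5.34%), with 2 at an unadjusted limma p under 0.05 (15.2%). Groups did not overlap for 6 of the 12, where 32.6% of all tested genes did not. Fold changes ran from -0.29 to 0.74, with 6 above 0 and 6 below. Elmo2 had a fold change of -0.22 (limma adjusted p = 0.226), and because the knock-in changes a codon this does not check the genotype. Elmo1 and Elmo3 had -0.11 and -0.14. Xist was read in all 5 samples and Y-linked genes at 0 or 1 read.

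Markers of other cell types that the cultures could hold moved with genotype in part, and are given here beside Baalc and Dpp6. In bulk RNA, fewer cells of a type and less RNA per cell cannot be told apart. Neuronal markers, from cells in which both genes are well known, had summed levels of 908.7 to 1248 normalized counts in WT and 777.2 to 903.7 in Elmo2EID/EID. Of 10, 7 were tested and limma called 1 (2.23% of all genes), edgeR 2 (2.25%) and DESeq2 3 (5.34%), with 4 at an unadjusted limma p under 0.05 (15.2%). The limma call was the neurofilament gene Nefm, lower by 2.22 on the log2 scale (adjusted p = 0.0237). Of the 7, 5 had fold changes below 0 and 2 above, and those not called ran from -2.77 to 1.82. The upper end was Stmn2, a tubulin-binding protein gene, without overlap (limma adjusted p = 0.0609). Snap25 was at 0, and Syt1 and Rbfox3 were at or under 3 reads throughout.

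Schwann cell and neural crest markers summed to 16147 to 17059 normalized counts in WT and 15618 to 16019 in Elmo2EID/EID, nearly all from Erbb3. Erbb3 had a fold change of -0.11 and the other 7 of the 8 were above 0, so the sum does not follow them. Limma called 0 of 8 (2.23% of all genes), as did edgeR (2.25%) and DESeq2 (5.34%), with 2 at an unadjusted limma p under 0.05 (15.2%). Endothelial markers summed to 231.1 to 969.6 in WT and 2391 to 3682 in Elmo2EID/EID, with 0 of 10 called by limma (2.23% of all genes), 7 at an unadjusted p under 0.05 (15.2%), 1 called by edgeR (2.25%) and 3 by DESeq2 (5.34%). All 10 did not overlap between the genotypes, where 32.6% of all tested genes did not. Of these, 9 were higher in Elmo2EID/EID, Cldn5 was lower, and the median fold change was 2.10. Of 7 pericyte and smooth muscle markers, 6 were tested and limma called 2 (2.23% of all genes, 1.14% lower), both lower, Rgs5 (-2.97) and Notch3 (-1.55). EdgeR and DESeq2 called 2 each (2.25% and 5.34% of all genes), and 4 had an unadjusted limma p under 0.05 (15.2%). Myh11 (1.42, limma adjusted p = 0.250) and Cspg4 (0.39, limma adjusted p = 0.264) had the other direction without overlap, and the list summed to 10989 to 12819 in WT and 9956 to 10013 in Elmo2EID/EID, mostly from Abcc9.

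Fibro-adipogenic markers summed to 190.7 to 1408 in WT and 1038 to 1109 in Elmo2EID/EID. Limma called 0 of 5 tested genes (2.23% of all genes), as did edgeR (2.25%) and DESeq2 (5.34%), with 1 at an unadjusted limma p under 0.05 (15.2%). Macrophage markers summed to 27.3 to 59.4 and 40.3 to 195.0. Of these, 4 were tested, and against the same shares limma, edgeR and DESeq2 called 0, with 1 at an unadjusted limma p under 0.05. WT replicate 2 held the lowest endothelial and fibro-adipogenic sums, and in it Baalc was at 710.0 and Dpp6 at 595.6 normalized counts. Groups did not overlap for 4 of the 7 tested neuronal markers, 3 of 8 Schwann cell and neural crest, 4 of 6 pericyte and smooth muscle, 1 of 5 fibro-adipogenic and 1 of 4 macrophage markers, where 32.6% of all tested genes did not. Their median fold changes were -0.26, 1.31, -0.23, 0.79 and 0.56. The part of these cells in the levels of Baalc and Dpp6 was not tested.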

How the data were processed

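Poly-A RNA of 5 samples was sequenced as read pairs. Per the study's methods, untrimmed reads were mapped to GRCm38 by STAR 2.5.1b, and featureCounts 1.4.6 assigned the uniquely mapped ones to genes in reverse-stranded mode. The authors deposited a normalized signal, which is each gene's count over its library's size factor from DESeq2 1.34.0. All positive values (100%) came out as whole reads within 0.01 of a read when divided by what 1 read is worth in that library, so counts were recovered. The recovered totals and the value of 3 reads set the precision given beside the results.

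Gene names, positions and merged exon lengths were taken from GENCODE M21, which matched 54165 of 54232 identifiers. The study's methods name an Ensembl release for counting whose exons may differ, so per kb values rest on M21 lengths and are approximate. This also applies to the percentiles. Promoter sequences were taken from RefSeq on GRCm38.p6. Genes reaching 5 normalized counts in 1 or more samples were tested two-sided with limma 3.58.1 under R 4.3.3 (lmFit, then eBayes with trend) on log2(normalized count + 1), with WT (n = 3) against Elmo2EID/EID (n = 2), Benjamini-Hochberg adjustment over all 18156 genes and a threshold of 0.05. The scale understates the change of low genes. The tests were tried on simulated counts with 200 changed genes. Alternatives were pseudocounts of 0.5 and 5, other filters, TMM and equal-total scaling, the count tests of edgeR 4.0.16 and DESeq2 1.42.0, limma with no trend, a block for replicate number, each sample left out in turn, and windows of 0.5 and 2 Mb. With an Elmo2EID/EID sample left out, the remaining one was assumed to vary like the WT samples. Tables were handled in Python 3.11.15 with pandas 2.3.3 and scipy 1.17.1.

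Baalc, Dpp6 and the gene lists were chosen with earlier results of these data known. The genes named are the list members averaging 100 or more normalized counts or past the test, the tested protein-coding genes within 1 Mb, overlapping genes, the 5 genes nearest in profile, and the genes ranked around Baalc and Dpp6. Genes named below those levels, Zfp706 and the single marker genes were named after their values were seen. Some genes that fall under these choices are counted but not reported here.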

Additional observations from a re-analysis of the deposited data

How the results depend on the processing

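With 3 and 2 samples and as few as 22 reads for Dpp6 and 24 for Baalc in a mutant sample, depth limits how the mutant levels can be ordered. Leaving out 1 sample moved the log2 fold change of Baalc between -5.10 and -3.89 (the ends are without Elmo2EID/EID replicate 2 and replicate 1) and that of Dpp6 between -4.82 and -4.14, and the other alternatives moved either by less than the spread between replicates. Over all genes, 197 were called higher and 207 lower. These counts were 98 and 57 with no filter on low values, 414 and 555 with DESeq2, 97 and 47 in limma without the trend, 116 and 108 with the replicate block, and 18 to 164 and 16 to 171 with a sample left out. The correlation between the genotypes of the difference of replicates 1 and 2 was -0.201 over 15107 genes. It rests on 1 difference per genotype, so it cannot decide whether samples of the same number share a preparation. WT replicate 3 has no partner. Within 1 Mb of Baalc, the 1 call became 0 with no filter, 3 with DESeq2, 0 without the trend and 0 with the replicate block. It was 0 to 1 with a WT sample left out. Within 2 Mb there were 2 calls, Cthrc1 lower and Zfp706 higher. For Cthrc1 itself the adjusted p was 0.125 with no filter, 0.140 without the trend and 0.123 with the replicate block. In the Baalc list the 1 call became 0 with no filter, 2 at equal totals (Camk2b and Mn1), 3 with DESeq2, 0 without the trend, 0 with the replicate block and 0 to 1 with a sample left out. Among the other potassium channels the 1 call became 0 with no filter, 0 without the trend, 0 with the replicate block and 0 to 1 with a sample left out, and for the Kv4 list it was 0 to 1, the 1 being Kcnab1 without WT replicate 2. The counts for the DPP4 family and around Dpp6 stayed at 0 in every alternative. Of the fold changes of single genes under the alternatives, 576 kept their direction and side of the threshold, 21 lost it (Cthrc1, Kcnh2 and Mn1), 5 gained it, and 27 turned in sign, none of them called. Turned signs were 0.0796 for Rims2 with edgeR, 0.0814 with DESeq2 and 0.10 with the block, 0.0045 for Atp6v1c1 and 0.22 for Actr3b with the block, and for Camk2a -0.0030 at equal totals, -0.0137 with edgeR, -0.0076 with DESeq2 and -0.16 with the block. With a sample left out, the ranges were -0.0390 to 0.0792 for Klf10, -0.0536 to 0.0045 for Atp6v1c1, -0.0839 to 0.12 for Slc25a32, -0.88 to 0.69 for Rims2, -0.40 to 0.25 for Actr3b, -0.17 to 0.0028 for Paxip1, -0.15 to 0.0252 for Dpp7, -0.28 to 0.0472 for Prcp, -0.0574 to 0.0193 for Prep, -0.0903 to 0.24 for Klf4 and -0.16 to 0.0959 for Camk2a. The cause of these changes was not tested.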
